A study of Homo sapiens with 8 samples.

Results

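The AKR1C and AKR1B aldo-keto reductase genes lie in 2 clusters, AKR1C1, AKR1C2, AKR1C3 and AKR1C4 on chromosome 10 and AKR1B1, AKR1B10 and AKR1B15 on chromosome 7, and H3K27ac was described here around these 7 genes. H3K27ac, an acetylated form of histone H3 found at active promoters and enhancers, was mapped by chromatin immunoprecipitation and sequencing (ChIP-seq) in A549, a human line from a lung adenocarcinoma in which a KEAP1 mutation keeps the transcription factor NRF2 active. The 3 control libraries came from A549 cells transfected with control siRNA, and the 3 NRF2 siRNA libraries from A549 cells transfected with an siRNA against NRF2, which was siRNA 28 for replicate 1 and siRNA 30 for the other replicates, all harvested after 48 h. All cells were of this 1 line and carried the same KEAP1 mutation. The study describes the replicates as separate experiments, and the labels give only their numbers.

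Peaks of the 6 libraries that overlapped by at least 1 base were merged into 49186 regions, and the regions that touched a member gene or the 20 kb on either side of it were kept. This left 37 regions, 20 in the AKR1C cluster and 17 in the AKR1B cluster. Of these, 17 were called in all 6 libraries and 13 in only 1 or 2. The 24 regions called in at least 3 libraries, 13 in the AKR1C and 11 in the AKR1B cluster, could be compared by rank. Because the lists hold no read counts and differ in length, each region was given a percentile, the share of the library's own peaks whose fold enrichment was at or below that of the region's highest peak. A region without a peak in a library is called absent from that list, which does not show that the mark was absent from the cells.

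The lists held between 23885 and 41571 peaks, and replicate 1, which the study sequenced less deeply than the others in both groups, gave the shortest list in each. Epithelial identity was checked at transcript starts: 5 of 8 epithelial genes had a peak in all 6 libraries and the other 3 in some, whereas 4 of 5 alveolar type 2 genes, including SFTPC and NKX2-1, had none in any library. Of 6 genes of other lineages, 4 had no peak in any library and ALB and COL1A1 had one in 1 library each. The start of NFE2L2, the gene that encodes NRF2, had a peak in all 6 libraries (score change -0.20, limma adjusted p = 0.602), which does not test the knockdown because an siRNA acts on the transcript.

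Aldo-keto reductases use NADPH to reduce carbonyl groups to alcohols. AKR1C enzymes act on steroids and prostaglandins, AKR1B1 is the aldose reductase that turns glucose into sorbitol, and AKR1B10 reduces retinal and lipid aldehydes. Several of these genes are known targets of NRF2, which as a partner of small MAF proteins binds antioxidant response elements, and their transcripts are used as markers of NRF2 activity in lung cancers with KEAP1 mutations.

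The AKR1C genes arose by duplication, and their promoters are shown because near-identical sequence limits where a read can be placed. Of the 7 genes, 5 had an entry among the RefSeq promoters (GRCh38.p14), and AKR1B10 and AKR1B15 had none. The 120 bases before the start are printed for the AKR1C genes, each on its own strand. Capitals mark bases that, inside the alignment, differ from AKR1C1 or face a gap in it. Bases past the end of the aligned AKR1C1 sequence have no base to compare with and are in lower case. Such bases close the AKR1C2 and AKR1C4 sequences, so lower case there does not mean identity. AKR1C1 (plus strand) is at chr10:4963295-4963414, AKR1C2 (minus strand) at chr10:5003858-5003977, the more downstream of 2 AKR1C3 entries (plus strand) at chr10:5094294-5094413 and AKR1C4 (plus strand) at chr10:5196717-5196836.
AKR1C1: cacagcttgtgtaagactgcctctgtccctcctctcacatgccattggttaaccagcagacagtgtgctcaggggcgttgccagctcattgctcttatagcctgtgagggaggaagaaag
AKR1C2: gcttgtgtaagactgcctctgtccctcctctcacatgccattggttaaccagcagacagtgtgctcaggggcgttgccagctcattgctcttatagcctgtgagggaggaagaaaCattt
AKR1C3: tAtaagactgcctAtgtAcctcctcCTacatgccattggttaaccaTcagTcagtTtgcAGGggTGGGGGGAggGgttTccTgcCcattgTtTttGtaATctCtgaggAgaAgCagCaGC
AKR1C4: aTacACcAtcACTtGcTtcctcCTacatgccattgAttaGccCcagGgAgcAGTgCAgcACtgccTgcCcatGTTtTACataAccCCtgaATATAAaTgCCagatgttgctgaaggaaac

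Over the 250 bases before the start, AKR1C2 matched AKR1C1 at 245 of 246 aligned bases (99.6%), this AKR1C3 entry at 78.6% and AKR1C4 at 68.1%. The repeats reach beyond the promoters: 22.0% of the words of read length in the AKR1C1 gene and 17.4% of those in AKR1C2 occur more than once in GRCh37, against 2.22% in AKR1C3, 0.0770% in AKR1C4 and 0.719% in AKR1B1. Reads with a mapping quality below 20 were removed by the authors, so a peak can be missing in both groups where the sequence is repeated, and values in AKR1C1 and AKR1C2 are less certain than those in AKR1C4 or AKR1B1.

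The core antioxidant response element was searched as TGACNNNGC on both strands of the GRCh37 regions. The sites shown are an identical pair upstream of the canonical AKR1C1 and AKR1C2 starts, and, in 3 AKR1B regions whose rank fell, the single match of each that is followed by A, with the match in capitals and the strand after the position. They lie at chr10:4999253-4999282 (minus) for the AKR1C1 copy, chr10:5051591-5051620 (plus) for the AKR1C2 copy, chr7:134133586-134133615 (minus) inside AKR1B1, chr7:134201179-134201208 (minus) upstream of AKR1B10 and chr7:134278777-134278806 (plus) downstream of AKR1B15.
Upstream of AKR1C1 and of AKR1C2: gcagtcagggTGACTCAGCagcttgcacac
Inside AKR1B1: tgattcagcaTGACACAGCacatctgggag
Upstream of AKR1B10: tagaaatcgtTGACCAGGCagaattcattt
Downstream of AKR1B15: cccagcaccaTGACTTTGCatttgtgctct

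The pair upstream of the canonical AKR1C1 and AKR1C2 starts is identical over 30 bases and also overlaps the AP-1 core TGANTCA. The AKR1C2 copy lies inside the annotated AKR1C2 gene (chr10:5029967-5060223, minus strand), whose canonical start is at 5046049. Peaks covered the AKR1C1 copy in 3 control and 2 NRF2 siRNA libraries, and the AKR1C2 copy in 3 and 3. The site inside AKR1B1 was under a peak in 3 control and 2 NRF2 siRNA libraries, and the other 3 matches of that region in 1 and 0, 3 and 1, and 2 and 0. The site upstream of AKR1B10 was under one in 3 and 2, and the site downstream of AKR1B15 in 3 and 3.

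Acetylation around the genes fell in rank with NRF2 siRNA at 5 regions and rose at none. The 5 regions are the AKR1C1 start, a region 5 kb inside AKR1C1, a region inside AKR1B1, a region upstream of AKR1B10 and a region downstream of AKR1B15. Ranks within each library were turned into normal scores (the value of a standard normal distribution at that rank), and the scores of NRF2 siRNA and control libraries were compared with limma over 32673 regions of the genome, adjusted by Benjamini-Hochberg over all of them, with 0.05 as the threshold. The 5 falls are 5 of 24 member regions tested, where 3.39% of all tested regions passed as lower and 2.01% as higher. Of the 5, the region 5 kb inside AKR1C1 entered the comparison through its 3 control calls alone, so it had to differ and adds nothing to the count. At an unadjusted p under 0.05 there were 11 lower and 1 higher, against 10.7% and 11.9% of all tested regions. The 11 include this AKR1C1 region and a region in an AKR1C3 intron, and both were tested only because of their control calls. With the replicate number as a block, 6 member regions passed as lower and 0 as higher, against 6.62% and 5.72% of all tested regions. The 6 again include this AKR1C1 region. The genome-wide fit made no call at all when control replicate 2 or control replicate 3 was left out, so none of the 5 calls could be made without either of those libraries.

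Most of the other member regions also had lower scores. The score was lower with NRF2 siRNA in 18 of the 24 and higher in 6, where 15850 and 16823 of all 32673 tested regions were so. The median change was -0.37 against 0.02 over all tested regions. In 13 of the 24 the score was lower in all 3 pairs of same-numbered libraries, against 22.9% of all tested regions. It was higher in all 3 pairs in 2 of the 24, and in 9343 of all 32673 tested regions. In 11 of the 24 every NRF2 siRNA percentile lay below every control percentile, and in 0 every one lay above, where 12.8% and 7.39% of all tested regions did so. For a single such region the exact permutation test gives p = 0.1, the smallest possible with 3 against 3 libraries. Of the 37 regions, 2 had a peak in all 3 control and no NRF2 siRNA library, as did 2.27% of all 49186 regions. The reverse was seen in 0. These 2 entered the rank comparison through the control libraries alone. With uncalled regions set to 0 they had to be among the 11, so they add nothing to that count. They are also among the 18 and the 13. The less often called regions were mostly of 1 control library, and 14 of the 37 were found in control libraries only and 1 in an NRF2 siRNA library only, against 18.9% and 13.1% of all regions.

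**Figure D1:**
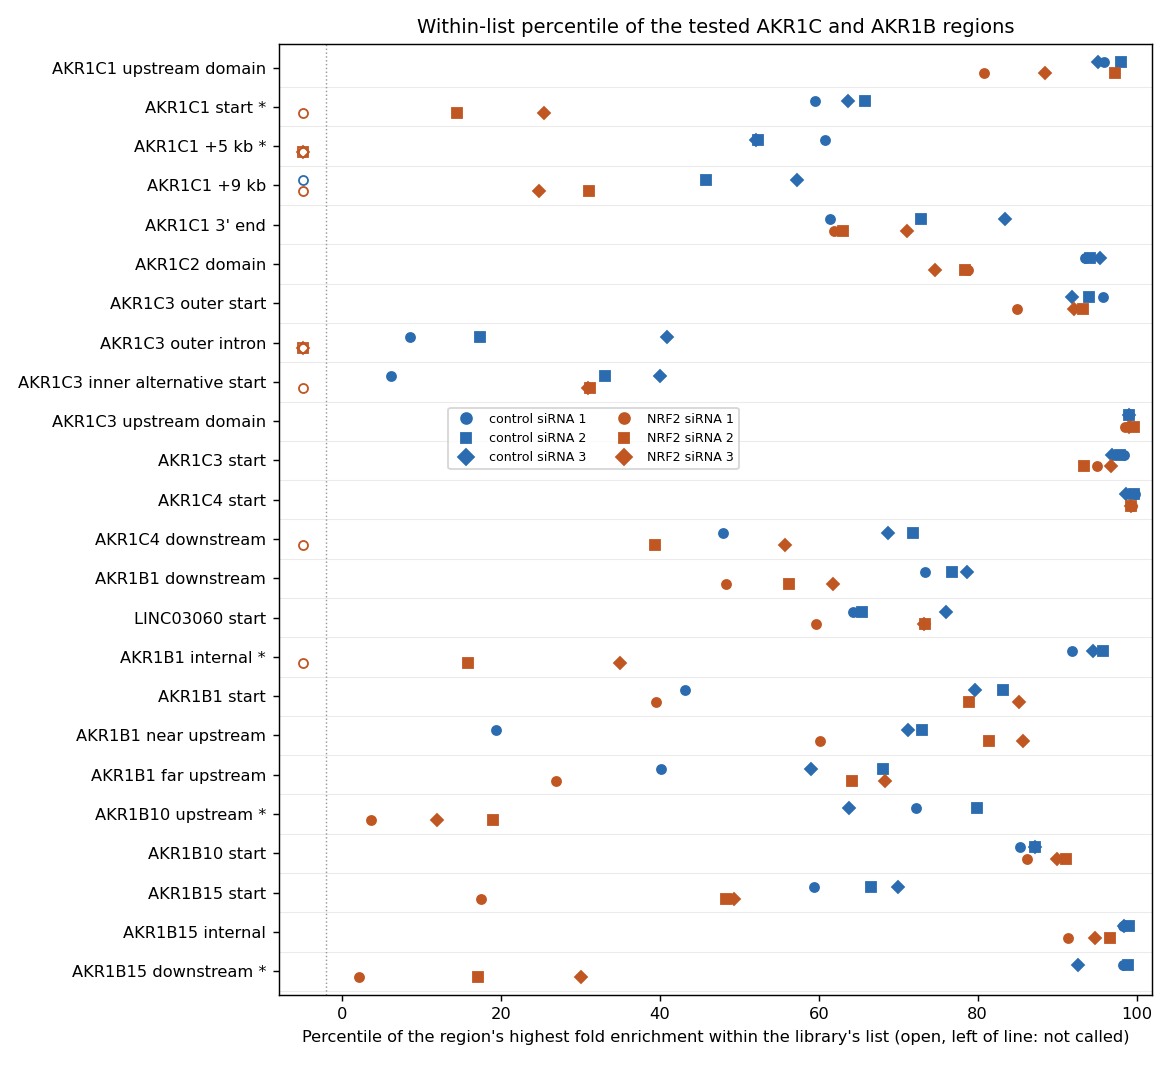
Percentile of each tested region's highest fold enrichment within the library's own list (x axis, percent), with 1 row for each of the 24 regions, blue for control siRNA and orange for NRF2 siRNA, and circles, squares and diamonds for replicates 1, 2 and 3. Open symbols left of the dotted line mark a library without a peak, an asterisk marks a limma adjusted p under 0.05, and the largest gaps are inside AKR1B1 and downstream of AKR1B15.

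In the AKR1C cluster, both regions that passed lay in AKR1C1. AKR1C1 is a 20-alpha-hydroxysteroid dehydrogenase that inactivates progesterone. The region over its start (chr10:5003377-5009685, hg19; exonic and intronic, untranslated sequence included) stood at the 59.5th, 65.8th and 63.7th percentile in control replicates 1, 2 and 3. In the NRF2 siRNA libraries it was absent from the list of replicate 1 and stood at 14.4 and 25.3 in replicates 2 and 3. All control values lay above all NRF2 siRNA values. The score fell by 1.20 (SE 0.20, limma adjusted p = 0.0146). NRF2 siRNA replicate 1 was uncalled, so its score was the tied lowest rank of its list (-0.84). The called scores of replicates 2 and 3 were -0.88 and -0.92. The tied value depends on list length, and the SE rests in part on it. The call was also lost without control replicate 1 (adjusted p = 0.0513), NRF2 siRNA replicate 2 (0.0850) or NRF2 siRNA replicate 3 (0.0586), with changes between -1.47 and -1.20 over all left-out libraries. In this region 16.4% of the words of read length are repeated elsewhere in the genome. It held 1 match to TGACNNNGC, a density that 80.7% of tested regions of like length reached.

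A shorter region 5254 bp downstream of that start (chr10:5010861-5012682; exonic) was called in the control libraries only. Its control percentiles were 60.8, 52.4 and 52.1, and no NRF2 siRNA library had a peak there. As it was tested only because of the control calls, its score change of -1.59 (SE 0.33, limma adjusted p = 0.0289) is a description. All 3 NRF2 siRNA scores were the tied lowest rank of their lists (-0.84, -1.63 and -2.01), which depends on list length. With no filter on calls the change was -1.41 (limma adjusted p = 0.0144). This does not lift the limit, as the region still exists only through its control peaks. The call was lost without NRF2 siRNA replicate 2 (limma adjusted p = 0.140) or replicate 3 (0.0982). The region held 0 matches to TGACNNNGC.

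Upstream of AKR1C1 the percentiles overlapped between groups while the covered lengths did not. This broad intergenic domain (chr10:4979885-5002095, ending 3512 bp before the AKR1C1 start) is described because its length was seen to differ, and was not chosen by the rule for named regions. Its percentiles were 95.9, 98.0 and 95.1 in control and 80.8, 97.3 and 88.4 in NRF2 siRNA libraries, which overlap (score change -0.42, SE 0.27, limma adjusted p = 0.405). Peaks covered 19717, 19757 and 22211 of its bases in control replicates 1, 2 and 3. With NRF2 siRNA they covered 3354, 9269 and 12029 bases, each less than the smallest control value. How many regions of the genome lost covered length in this way was not counted, here or for the single regions below. The domain held 12 matches to TGACNNNGC, or 0.54 per kb, a density that 18.6% of tested regions of like length reached.

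AKR1C2 encodes a 3-alpha-hydroxysteroid dehydrogenase that inactivates dihydrotestosterone. Its start lies in the longest domain of the cluster (chr10:5030139-5069092, 38954 bp, exons, introns and the sequence upstream). The control percentiles of 93.5, 94.2 and 95.4 all lay above the NRF2 siRNA percentiles of 78.8, 78.4 and 74.6. The score change was -0.79 (SE 0.21) and did not pass (limma adjusted p = 0.0657), but it passed with the replicate block (adjusted p = 0.0377). With 1 library left out it passed only without NRF2 siRNA replicate 1 (adjusted p = 0.0329), and the other 5 fits gave adjusted p between 0.144 and 0.213. Peaks covered 37776, 38283 and 38954 bases in control and 15029, 29575 and 32883 bases in NRF2 siRNA libraries. Of the words of this domain, 14.2% are repeated in the genome. The domain held 11 matches to TGACNNNGC, a density that 75.4% of tested regions of like length reached.

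AKR1C3, the enzyme that makes testosterone from androstenedione and also prostaglandin F, has several annotated starts. Around the canonical start (chr10:5129377-5152740; exonic and intronic) the percentiles were 98.4, 97.9 and 96.9 in control and 95.0, 93.3 and 96.7 in NRF2 siRNA libraries. The groups did not overlap, but the highest NRF2 siRNA value came within a percentile of the lowest control value (score change -0.31, SE 0.22, limma adjusted p = 0.451). Covered length there was 21455, 22054 and 23364 bases in control against 9284, 16469 and 12504 bases in NRF2 siRNA libraries.

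A second high domain of AKR1C3 ends 11337 bp before the canonical start (chr10:5107878-5125269) and holds an alternative start. It stood at 99.1, 99.0 and 99.0 in control and 98.5, 99.6 and 99.0 in NRF2 siRNA libraries, with a score change of 0.09 (SE 0.21, limma adjusted p = 0.851). These ranks overlapped. When the length-weighted mean fold of the peaks was ranked in place of the highest, the score change was -0.45, so its direction depends on which value is ranked.

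The outermost AKR1C3 start (chr10:5070518-5081003) stood at 95.7, 94.0 and 91.8 in control and 84.9, 93.3 and 92.1 in NRF2 siRNA libraries (score change -0.18, SE 0.22, limma adjusted p = 0.686). In the intron that follows (chr10:5081944-5084079) the control libraries had peaks at percentiles 8.49, 17.4 and 40.9 and the NRF2 siRNA libraries had none. This region too was compared only because of its control calls, and its change of -0.87 did not pass. A further alternative start (chr10:5089250-5092042) ranked low in both groups, at 6.18, 33.1 and 39.9 in control, absent in NRF2 siRNA replicate 1, and 31.2 and 31.0 in replicates 2 and 3 (score change -0.18, SE 0.20, limma adjusted p = 0.666).

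AKR1C4, best known as a liver enzyme of bile acid and steroid metabolism, had one of the highest-ranked starts of the cluster. Its start region (chr10:5233302-5242162; exonic and intronic) stood at 99.7, 99.7 and 98.7 in control and 99.5, 99.3 and 99.2 in NRF2 siRNA libraries. The groups overlapped and the score change was -0.08 (SE 0.25, limma adjusted p = 0.889). It is also the start region with 0 matches to TGACNNNGC in 8861 bases, together with that of AKR1B1. A region 36371 bp beyond the AKR1C4 start (chr10:5275171-5277570) stood at 47.9, 71.8 and 68.7 in control, was absent in NRF2 siRNA replicate 1 and stood at 39.4 and 55.7 in replicates 2 and 3 (score change -0.74, SE 0.25, limma adjusted p = 0.124).

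**Figure D2:**
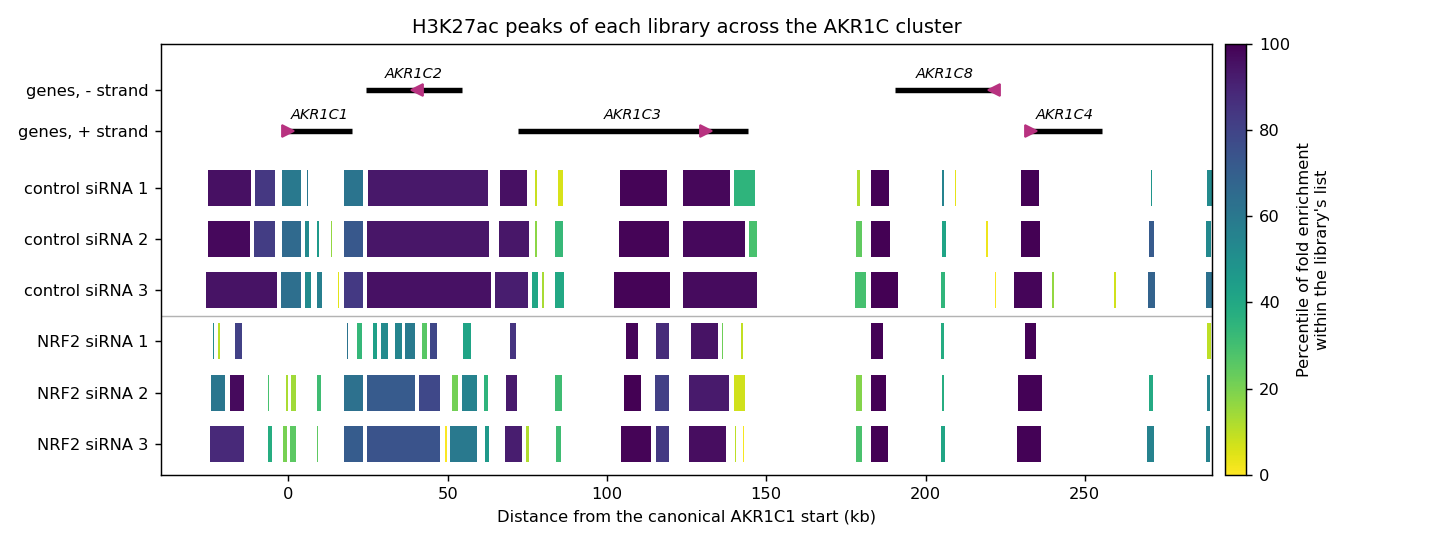
Peaks of each library (rows) across the AKR1C cluster against distance from the canonical AKR1C1 start in kb, coloured by percentile within the library's list, with genes above as black bars and canonical starts as arrowheads. The control libraries have near-continuous peaks upstream of AKR1C1 and across AKR1C2, which are broken into shorter peaks in the NRF2 siRNA libraries, of lower percentile across AKR1C2 and of overlapping percentile upstream of AKR1C1, whereas the block at the AKR1C4 start keeps its percentile.

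The length covered by peaks was compared for the AKR1C cluster as a whole. In the AKR1C windows, 248 kb in all, peaks covered 118, 126 and 141 kb in control replicates 1, 2 and 3, with a mean of 128 ± 11.3 kb (SD, n = 3). With NRF2 siRNA they covered 42.5, 84.8 and 93.3 kb, with a mean of 73.5 ± 27.2 kb (SD, n = 3). All NRF2 siRNA values lay below all control values, by 54.7 kb on average (exact permutation test, two-sided, p = 0.1). The number of peaks was not lower, at 14, 17 and 18 in control and 17, 20 and 20 in NRF2 siRNA libraries, and the length-weighted mean fold was 9.87, 10.6 and 12.7 against 6.35, 8.34 and 8.93.

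Over the whole genome, peaks covered 64.7, 85.0 and 113 Mb in control and 46.3, 84.8 and 106 Mb in NRF2 siRNA libraries. With lists cut to equal length the difference in the AKR1C windows was -56.7 kb (exact permutation p = 0.1). Relative to that total, the AKR1C windows took 1517 ± 295.3 bp per covered Mb in control lists and 934 ± 60.0 bp with NRF2 siRNA (SD over 3 libraries; exact permutation p = 0.1). In replicate 2, where both libraries covered nearly the same length of the genome, the AKR1C windows changed by -41.3 kb. The AKR1C4 window alone changed by -1.66 kb (exact permutation p = 0.6).

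**Figure D3:**
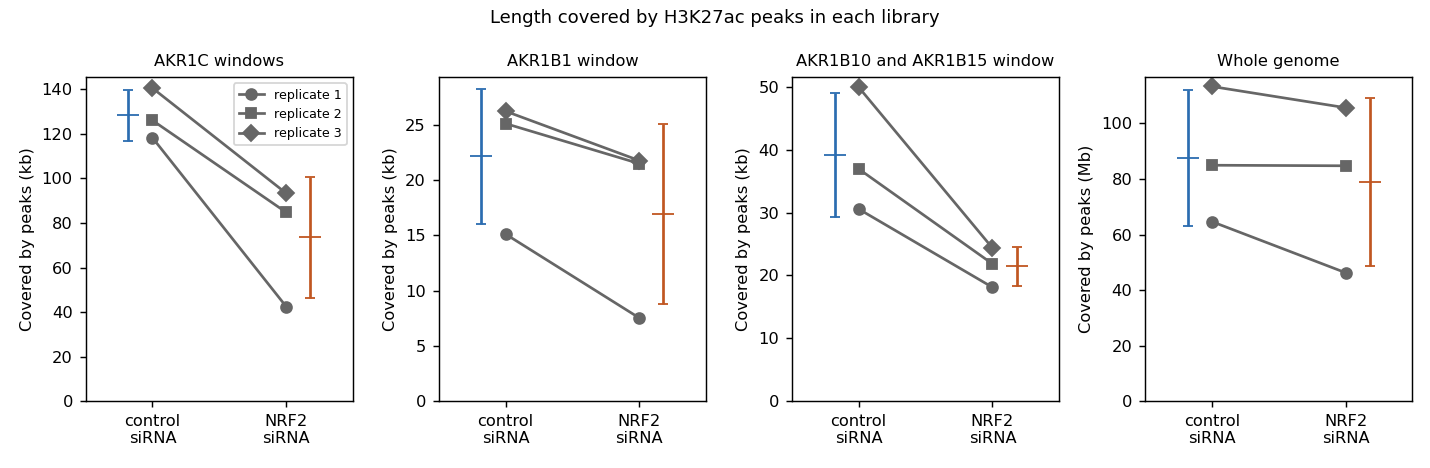
Length covered by peaks in each library in the AKR1C windows, the AKR1B1 window and the AKR1B10 and AKR1B15 window (kb), and in the whole genome (Mb), with lines joining libraries of the same replicate number and bars for mean ± SD of 3 libraries. The AKR1C lines fall from 118 to 141 kb down to 42.5 to 93.3 kb, while the genome line of replicate 2 is nearly level.

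In the AKR1B cluster, none of the 3 regions that passed held a canonical start. Inside AKR1B1, a region 7718 bp downstream of the canonical start (chr7:134131529-134136134; exons and introns, with the start of a shorter transcript) stood at 91.9, 95.8 and 94.6 in the control libraries. It was absent in NRF2 siRNA replicate 1 and stood at 15.8 and 35.0 in replicates 2 and 3. The control values thus lay near the top of each list, and no NRF2 siRNA value came near them. The score fell by 2.34 (SE 0.20, limma adjusted p = 0.00628), with changes of -2.35, -2.56 and -2.12 in pairs 1, 2 and 3. NRF2 siRNA replicate 1 was uncalled, so its score was the tied lowest rank of its list (-0.84). The called scores of replicates 2 and 3 were -0.85 and -0.64. The tied value depends on list length, and the change in pair 1 and the SE rest in part on it. The call of this region was lost without control replicate 2 (adjusted p = 0.0698) or control replicate 3 (0.0624). The region held 4 matches to TGACNNNGC, or 0.87 per kb against a median of 0.35 per kb in tested regions of like length, of which 7.28% reached that density.

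At the canonical AKR1B1 start itself (chr7:134142309-134148920) ranks overlapped. They were 43.2, 83.2 and 79.7 in control and 39.5, 78.9 and 85.2 in NRF2 siRNA libraries, and the low value in each group was replicate 1. The score change was 0.09 (SE 0.28, limma adjusted p = 0.891). Farther upstream (chr7:134155073-134161148; intergenic), the percentiles were 19.4, 72.9 and 71.2 in control and 60.1, 81.4 and 85.7 in NRF2 siRNA libraries. This region had a higher score in all 3 pairs (change 0.60, SE 0.26) and did not pass (limma adjusted p = 0.215), and the change was 0.35 without control replicate 1. It held 4 matches to TGACNNNGC, or 0.66 per kb, a density that 15.7% of tested regions of like length reached. Of these matches, 3 were followed by A, a density that 3.12% of regions of like length reached. Whether the internal region and the start of AKR1B1 differ in their change was not tested.

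AKR1B10, which is often overexpressed in smokers' lung tumours, had a region that passed in its upstream flank and none at its start, and the difference between them was not tested. Its start domain (chr7:134204301-134221517; exons, introns and upstream sequence) stood at 85.3, 87.2 and 87.3 in control and 86.2, 91.2 and 89.9 in NRF2 siRNA libraries, with a score change of 0.18 (SE 0.19, limma adjusted p = 0.636). Covered length in it was 15619, 16527 and 17217 bases in control and 10273, 12873 and 13324 bases in NRF2 siRNA libraries, so the ranks overlapped and the lengths did not. A separate intergenic region 9880 bp upstream of the start (chr7:134197388-134202439) stood at 72.3, 79.9 and 63.7 in control and at 3.57, 19.0 and 11.9 in NRF2 siRNA libraries.

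That upstream region of AKR1B10 fell by 1.34 in score (SE 0.32, limma adjusted p = 0.0465). Like the call at the AKR1C1 start, it was lost without any single library other than NRF2 siRNA replicate 1: adjusted p was 0.137 without control replicate 1, 0.163 without NRF2 siRNA replicate 2 and 0.124 without NRF2 siRNA replicate 3. It held 3 matches to TGACNNNGC, a density that 22.0% of tested regions of like length reached.

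AKR1B15, a close relative of AKR1B10 that acts on estrogens and androgens, had values that did not overlap between groups at its start and at an internal start. At the canonical start (chr7:134225812-134235345), which also reaches the 3′ end of AKR1B10, the percentiles were 59.3, 66.6 and 70.0 in control and 17.5, 48.3 and 49.4 in NRF2 siRNA libraries (score change -0.50, SE 0.19, limma adjusted p = 0.160). At the internal start (chr7:134243515-134250763) they were 98.3, 99.0 and 98.4 against 91.3, 96.7 and 94.8 (score change -0.54, SE 0.20, limma adjusted p = 0.148). Neither change passed. The start domain of AKR1B10 and this internal region of AKR1B15 share 2 matches to TGACNNNGC that are identical over 30 bases.

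The largest fall of all member regions lay beyond the 3′ end of AKR1B15. This intergenic region, 40235 bp downstream of the AKR1B15 start (chr7:134274097-134282547), stood at 98.3, 98.9 and 92.6 in control and at 2.07, 17.1 and 30.1 in NRF2 siRNA libraries. Its highest peak thus was near the top of the control lists and in the lower part of the NRF2 siRNA lists. The score fell by 2.54 (SE 0.30, limma adjusted p = 0.00677), with changes of -2.42, -3.10 and -2.09 in pairs 1, 2 and 3. The call was lost without control replicate 2 (adjusted p = 0.0742) or control replicate 3 (0.0624). It held 1 match to TGACNNNGC in 8451 bases, or 0.12 per kb, a density that 88.2% of tested regions of like length reached.

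Just outside the 20 kb limit, 302 bp beyond the AKR1B15 window, the next region (chr7:134284929-134291869) stood at 63.3, 72.5 and 71.7 in control, was absent in NRF2 siRNA replicate 1 and stood at 36.0 and 25.6 in replicates 2 and 3. Its score change was -1.20 (SE 0.22, limma adjusted p = 0.0218), which passed the threshold. It is not a member, is in none of the member counts and is given only to show what the limit leaves out.

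**Figure D4:**
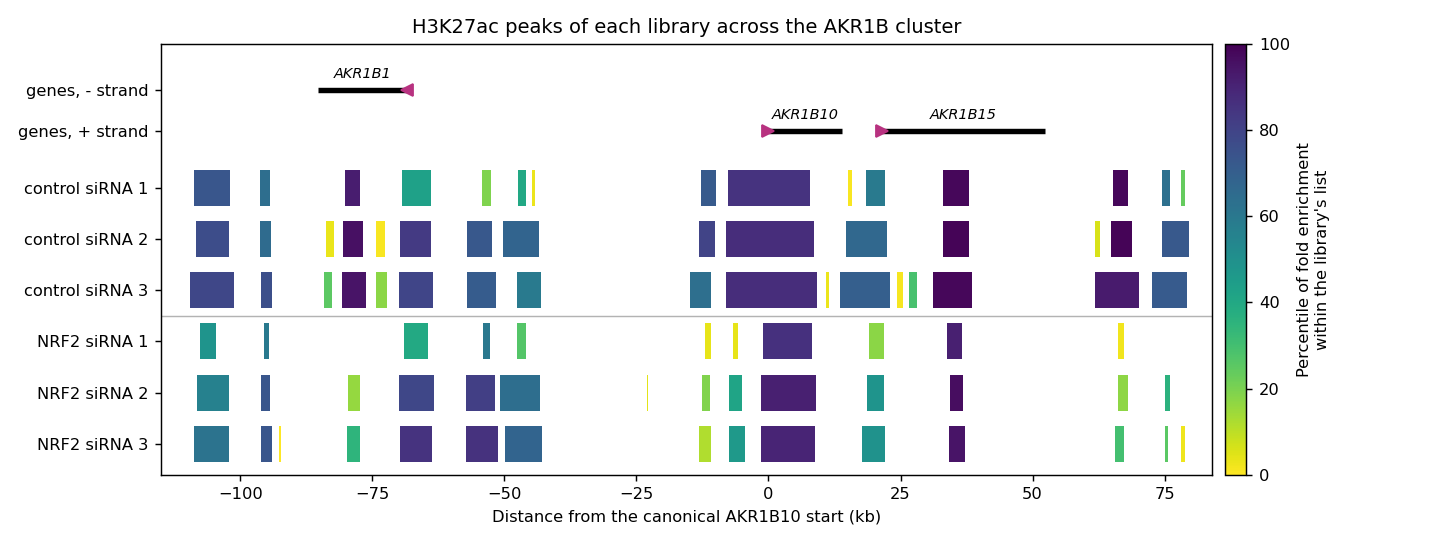
Peaks of each library (rows) across the AKR1B cluster against distance from the canonical AKR1B10 start in kb, coloured by percentile within the library's list, with genes above as black bars and canonical starts as arrowheads. The dark control peaks inside AKR1B1 and downstream of AKR1B15 are absent or of low percentile in the NRF2 siRNA libraries, while the peak over the AKR1B10 start stays dark and is shorter.

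Covered length in the AKR1B windows was 45.7, 62.03 and 76.1 kb in control (61.3 ± 15.2 kb, SD, n = 3) and 25.7, 43.3 and 46.1 kb in NRF2 siRNA libraries (38.4 ± 11.1 kb, SD, n = 3). These groups overlapped (difference -22.9 kb, exact permutation p = 0.2). Relative to the length covered genome-wide they did not, at 706, 730 and 672 bp per covered Mb in control and 554, 511 and 436 with NRF2 siRNA (exact permutation p = 0.1), and equal list lengths also gave p = 0.1 (difference -22.97 kb). In the AKR1B10 and AKR1B15 window they did not, at 30.6, 36.9 and 49.9 kb in control and 18.1, 21.9 and 24.4 kb in NRF2 siRNA libraries (exact permutation p = 0.1). The AKR1B1 window changed by -5.22 kb (exact permutation p = 0.5).

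**Figure D5:**
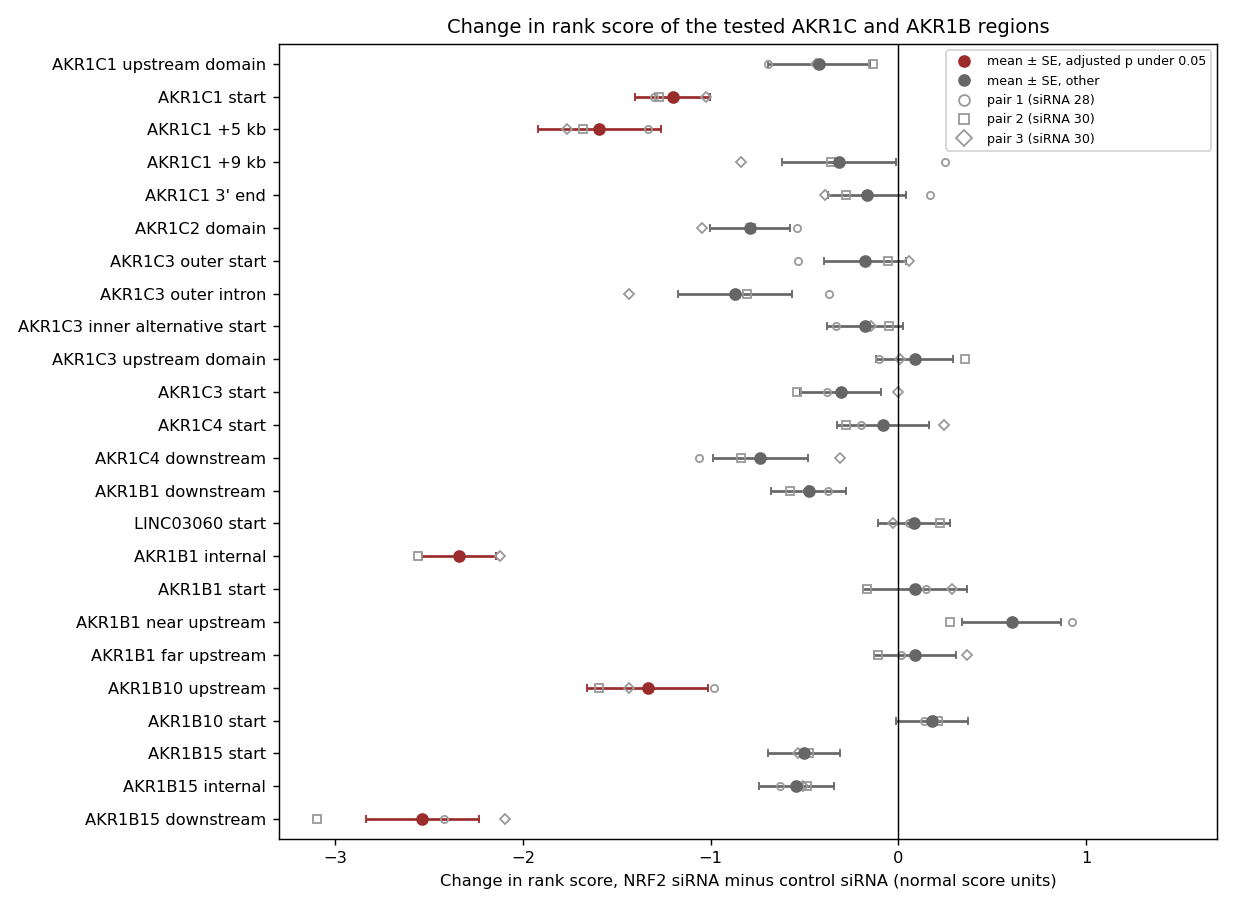
Change in rank score (NRF2 siRNA minus control siRNA, normal score units) of the 24 tested regions, with filled points for the mean ± SE of the limma fit, red where the adjusted p is under 0.05, and open symbols for the 3 pairs. The AKR1B1 internal region (-2.34) and the AKR1B15 downstream region (-2.54) lie far left of the rest, and the canonical starts of AKR1C4 (-0.08), AKR1B1 (0.09) and AKR1B10 (0.18) lie near 0.

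The calls at the 7 canonical starts differed. The start of AKR1C1 passed as lower, that of AKR1C2 passed with the replicate block, those of AKR1C3 and AKR1B15 had negative changes that did not pass, and those of AKR1C4, AKR1B1 and AKR1B10 had changes of -0.08, 0.09 and 0.18. By gene, the score was lower in 6 of 6 tested regions of AKR1C1, 5 of 5 of AKR1C2, 5 of 6 of AKR1C3, 2 of 2 of AKR1C4, 2 of 6 of AKR1B1, 3 of 4 of AKR1B10 and 3 of 4 of AKR1B15, where neighbouring genes share regions. Over all 32673 tested regions the score was lower in 15850, so a count over few regions of a gene says little. Differences between genes were not tested.

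Matches to TGACNNNGC were not denser in the member regions than elsewhere. The 24 tested regions held 0.30 matches per kb, 0.28 in the AKR1C and 0.35 in the AKR1B cluster, against 0.39 per kb over 32649 tested regions on GRCh37. A match was present in 20 of the 24, and in 63.7% of all tested regions, which are shorter on the whole. With the match followed by A the densities were 0.13 per kb in the member regions and 0.14 per kb over all. The AP-1 core TGANTCA was found at 0.48 per kb in the member regions against 0.45 over all, and the C/EBP core TTGCNNAA at 0.66 against 0.57. In the RefSeq promoter entries there was no match to TGACNNNGC for any of the 5 members with an entry, and 13.3% of 35116 promoters held one.

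Other genes of the same pathways were described from lists of regions in the gene or within 20 kb. The other aldo-keto reductases had 25 tested regions, of which 9 were lower and 16 higher, with a median change of 0.13. Only a region of KCNAB1, which encodes a potassium channel subunit of this enzyme family, passed (change -1.80, SE 0.30, limma adjusted p = 0.0140), and it was tested only because all 3 control libraries, and no NRF2 siRNA library, had a peak there. The steroid enzymes that act before or after the AKR1C enzymes had 29 tested regions, 16 lower and 13 higher, with a median of -0.10. A region of CYP19A1, the aromatase gene, passed as lower (change -1.18, limma adjusted p = 0.0423) and does not hold its start. All 3 control libraries had a peak there. NRF2 siRNA replicates 1 and 2 had none, so their scores were tied lowest ranks, and replicate 3 stood at the 0.27th percentile. With the replicate block 2 regions of this list passed as lower, the other being a region of SULT2B1, a sterol sulfotransferase (limma adjusted p = 0.0456 with the block). NRF2 siRNA replicates 1 and 2 had no peak in that SULT2B1 region either. The region over the SULT2B1 start changed by -0.07 (limma adjusted p = 0.894 without the block).

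The prostaglandin genes had 25 tested regions, 14 lower and 11 higher, with a median of -0.02, and 3 passed as lower and 1 as higher. The start of PTGR1, which encodes an NADPH-dependent reductase of prostaglandins and leukotrienes, stood at 98.0, 98.0 and 98.9 in control and 46.2, 64.3 and 67.2 in NRF2 siRNA libraries (change -1.78, limma adjusted p = 0.00628). The start of CBR1, a carbonyl reductase of another enzyme family, went from 94.9, 93.9 and 96.1 to 57.8, 70.2 and 75.9 (change -1.08, limma adjusted p = 0.0182). A region in PTGES2 or within 20 kb of it (chr9:130908794-130912508) also passed as lower (change -1.01, limma adjusted p = 0.0376). It does not hold the PTGES2 start, and the region that does changed by 0.0028 (limma adjusted p = 0.996). A region of PTGS1, a cyclooxygenase, passed as higher (change 1.18, limma adjusted p = 0.0405) and does not hold its start either.

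Next to AKR1B1 in the polyol pathway stand SORD, the sorbitol dehydrogenase that makes fructose, and KHK, the ketohexokinase that phosphorylates it. The region over the KHK start stood at 54.6, 58.0 and 84.8 in control, was absent in NRF2 siRNA replicate 1 and stood at 67.2 and 58.8 in replicates 2 and 3 (change -0.59, SE 0.34, limma adjusted p = 0.344). The region over the SORD start, described after its values were seen, had control percentiles of 35.2, 15.5 and 45.1 and no peak in an NRF2 siRNA library. It was tested only because of these control calls, and its change of -1.04 did not pass (limma adjusted p = 0.105). Of all 49186 regions, 2.27% had a peak in all 3 control and no NRF2 siRNA library. In a bulk chromatin preparation, acetylation lost from some of the cells and a lower level in every cell cannot be told apart.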

How the data were processed

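H3K27ac ChIP-seq of 3 control siRNA and 3 NRF2 siRNA libraries of A549 cells was analysed; 2 input samples were not used here. The authors aligned 101-base single-end reads to hg19 with Bowtie2 2.2.6, removed reads with mapping quality under 20 with SAMtools, called broad peaks in each library with MACS2 2.1.0.20151222 and removed blacklisted peaks. Each deposited list gives an integer score, fold enrichment as a ratio, and p-value and q-value as −log10. Which input served as background is not given in the sources used here. Read counts are not part of the deposited lists. Library read totals are given by the study but were left out here, and intervals based on them are not reported. A longer list can come from a deeper library, so fold was ranked within a list.

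Genes came from GENCODE v44 lifted to GRCh37. Of 34 chromosome names in the lists 24 were found in GRCh37, and 0 regions lay past a chromosome end. Scores of regions called in at least 3 libraries (tied lowest rank where uncalled) were compared with limma 3.58.1 (lmFit, eBayes) in R 4.3.3, and the step was tested on simulated data. Percentiles and covered lengths were compared by two-sided exact permutation tests, with uncalled regions at 0. Python 3.11.15, scipy 1.17.1 and pysam 0.24.0 were used.

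Deviations from the group means were correlated between libraries of the same number (r = 0.398, 0.199 and 0.363). Between libraries of different number r lay between -0.383 and 0.107. The numbers were therefore used as pairs in the replicate block. List length also rises with the number in both groups, so these correlations cannot show that equal numbers were paired experiments. Replicate 1 alone had siRNA 28, another peak naming and the lowest depth, so siRNA 28 and anything else particular to replicate 1 cannot be told apart. The labels name no batch. Named regions were those holding a member's start, those past the threshold and the 10 largest score changes. Members, lists and this rule were chosen with earlier results of these data known. Alternatives were the replicate block, equal list lengths, a stricter q-value, other merging, filters, ranked values and windows, and left-out libraries; the fit of the difference between siRNAs was added after seeing the data. Counts over the polyol and fructose gene list are not reported here.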

Additional observations from a re-analysis of the deposited data

Results flagged for a closer look

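In 3 member regions the pair with siRNA 28 moved one way and both pairs with siRNA 30 the other way. In the region 8931 bp downstream of the AKR1C1 start (chr10:5014538-5015996) the score changed by 0.25 in pair 1 and by -0.36 and -0.84 in pairs 2 and 3, so that pair 1 differed from the mean of the others by 0.85 (limma adjusted p = 0.453). Both replicate 1 libraries had no peak there, so the change in pair 1 comes from the tied lowest rank of lists of different length, and 38.5% of the words of read length of the region are repeated in the genome. At the 3′ end of AKR1C1 (chr10:5022970-5029153) the changes were 0.17, -0.28 and -0.39, a difference of 0.50 (limma adjusted p = 0.596). In the domain upstream of the canonical AKR1C3 start they were -0.10, 0.36 and 0.01, a difference of -0.28 (limma adjusted p = 0.801). A model term for the difference between the siRNAs, fitted over 32673 regions with limma, passed in 0 of them, with 3871 at an unadjusted p under 0.05, none of which was a member region. Replicate 1 also differs from the other replicates in depth and peak naming, and siRNA and replicate cannot be told apart.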

How the results depend on the processing

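The count of member regions that passed as lower was 5, and it was 8 with the replicate block and equal list lengths together, 2 at a q-value of at most 1e-05, 2 among regions called in all 6 libraries, 3 with replicates 2 and 3 only and 3 with windows of 5 kb. Leaving out 1 library gave 0 to 7, with 0 without control replicate 2 or 3 (when 0 regions passed genome-wide), 2 without control replicate 1 or NRF2 siRNA replicate 2 or 3, and 7 without NRF2 siRNA replicate 1. With the replicate block alone it was 6, the AKR1C2 domain being added. No member region passed as higher under any alternative. Regions found in all control and no NRF2 siRNA libraries numbered 2, or 4 without control replicate 1 (range 2 to 4). Regions whose percentiles lay wholly higher numbered 0, but 1 with equal list lengths, 0 to 2 with 1 library left out (2 without NRF2 siRNA replicate 1) and 2 when direction in all 3 pairs was counted (replicate block). Changes that turned sign were all of regions that did not pass: the outermost AKR1C3 start (8.8e-05 with replicates 2 and 3 only), the domain upstream of the canonical AKR1C3 start (-0.446 by length-weighted mean fold, -0.0778 by −log10 p and -0.0389 to 0.166 with 1 library left out), the AKR1C4 start (-0.308 to 0.0668 with 1 library left out) and the AKR1B1 start (-0.141 to 0.287 with 1 library left out). The cause of these shifts was not tested. The differences in covered length kept their sign under every alternative, from -69.99 to -39.2 kb for AKR1C and from -30.7 to -15.5 kb for AKR1B; paired by number, the exact test gave p = 0.25 for both, the smallest that 3 pairs allow. Of the score changes of single regions under alternatives, 245 kept direction and side of the threshold, 22 lost the threshold, 11 gained it and 7 turned sign. Without read counts, absence of a peak cannot be given a limit.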
